A study of Mus musculus with 8 samples.

Results

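The glutathione S-transferases (GST), UDP-glucuronosyltransferases (UGT) and sulfotransferases (SULT) of the liver were followed gene by gene in 8 mouse livers. Members were chosen by gene symbol alone: every identifier of the count table that GENCODE M21 (GRCm38) pairs with a protein-coding Mgst, Gst, Ugt1 to Ugt3 or Sult1 to Sult6 gene was taken, whatever its counts. This gave 67 of 45706 identifiers. They fall into 3 membrane-bound GST (MGST), 22 soluble GST, 9 genes of the UGT1 locus, 12 UGT2 and UGT3 genes and 21 SULT genes. Of these, 48 passed the filter on low counts and were tested, and 19 did not.

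These enzymes carry out phase II of detoxification, in which a polar group is attached to a drug, hormone, bile pigment or reactive lipid so that it can leave the cell in bile or urine. GST proteins use glutathione, UGT proteins use UDP-glucuronic acid or another UDP-sugar, and SULT proteins use the activated sulfate donor PAPS. Hepatocytes hold most of them, and their genes are known targets of the xenobiotic receptors CAR, PXR and AhR, of the oxidative stress factor NRF2 and of hepatocyte factors such as HNF4A.

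All 8 mice were C57BL/6J males injected in the tail vein at 6 weeks of age with an AAV2/8 vector, put on a high fat diet (60% of calories from fat) 4 weeks later and kept on it for 12 weeks. The 4 Srsf10_KD mice received a hairpin against Srsf10, which encodes an SR family splicing factor, and the 4 Ctrl mice a control hairpin. In both groups the chicken β-actin promoter drove the hairpin, so the vector's liver tropism and not the promoter limits it to the liver, and both groups carried the virus and ate the fat diet. There was no chow group. The question put to these genes is whether their mRNA level differed between the livers labelled Srsf10_KD and Ctrl.

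Libraries held 50456404 to 59697241 counted reads. Srsf10 itself was at 31.6, 33.7, 35.3 and 30.9 CPM (reads of the gene relative to the library's TMM-scaled total) in Ctrl livers 1 to 4 and at 34.3, 34.0, 41.0 and 36.5 CPM in Srsf10_KD livers 1 to 4. In these counts the targeted mRNA was thus not lower in the livers labelled Srsf10_KD (log2 fold change 0.15 ± 0.10 SE, adjusted p = 0.378 by edgeR's quasi-likelihood test, adjusted after Benjamini and Hochberg). The paper reports less SRSF10 protein by western blot and less Srsf10 mRNA by qPCR in livers given the hairpin. Groups are called here as they were labelled. Ctrl 4 and Srsf10_KD 3 stood apart from the other livers: Srsf10_KD 3 was the highest of the 8 livers for 29.8% and the lowest for 26.9% of the 15491 tested genes, and Ctrl 4 for 21.2% and 20.04%. Fold changes of all genes also moved with transcript length, with a median log2 fold change of 0.41 over the 1543 genes with transcripts under 1000 bases and of −0.19 over the 5132 genes with transcripts over 4000 bases. Hepatocyte markers were present at high level (7 matched markers, summed 75170 to 100900 CPM in Ctrl and 92780 to 111200 CPM in Srsf10_KD livers). The 6 cholangiocyte markers summed to 33.1 to 41.0 CPM in Ctrl and 50.2 to 72.9 CPM in Srsf10_KD livers. A positive fold change was found for 6 of 6, against 51.3% of all tested genes. Without overlap 3 of them (Krt19, Spp1 and Tspan8) were higher, against 6.73% of all tested genes. The part of these markers in the results below was not tested. In whole liver, fewer cells of a type and less RNA per cell cannot be told apart.

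The members were unequal in level. To compare genes, CPM was divided by the kilobases of exon that belong to 1 gene only, since reads in exons shared by several genes are not counted. On this scale Mgst1 led with a mean of 1993 CPM per kb over 8 livers and a range of 1650 to 3204. Mgst1 is an abundant enzyme of the endoplasmic reticulum and outer mitochondrial membrane that also reduces lipid peroxides. Its lowest liver lay above the highest liver of the next gene, Gstp1, the pi class GST, with a mean of 511 and a range of 350 to 740 CPM per kb. Behind it came Ugt2b5 (449 CPM per kb), Gstm1 (376), Sult2a8 (333), Ugt2b36 (332), Gsta3 (277), Ugt1a1 (204), Sult1a1 (168) and Ugt3a2 (153). In this order the 8-liver range of each gene from Gstp1 to Ugt3a2 overlapped that of the next, so neighbours did not differ beyond their spread. Of the 67 members, 44 had a mean of at least 1 CPM and 19 of at least 100 CPM. In summed CPM, Mgst1 made up 30.5% of all members, Gsta3 9.15% and Sult2a8 8.30%.

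**Figure D1:**
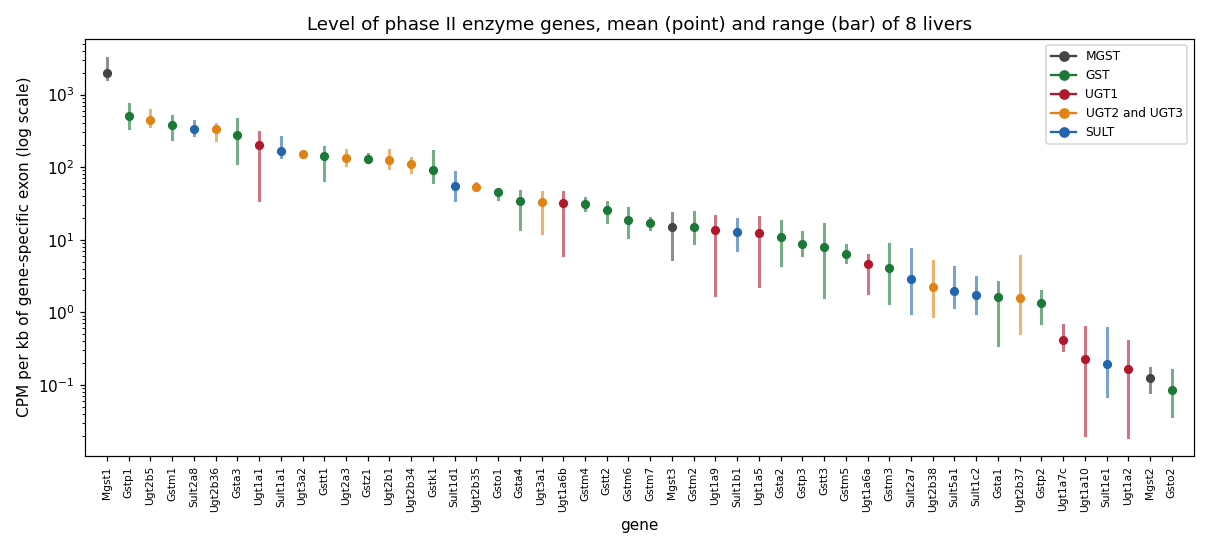
Mean level (points) and lowest to highest liver (bars) of the most abundant members, in CPM per kb of gene-specific exon on a log axis, over all 8 livers and coloured by family. Mgst1 stands alone at 1993 CPM per kb, and Ugt1a1, Ugt1a6b, Ugt1a9 and Ugt1a5 have long bars that reach down to Srsf10_KD 3.

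In the comparison of the groups, no member passed the threshold. With p-values adjusted over all genes after Benjamini and Hochberg, edgeR called 0 of 48 members at an adjusted p under 0.05, against 0.071% of all tested genes (11, every one lower in Srsf10_KD). At an unadjusted p under 0.05 it took 6 members (12.5%), against 21.8% of all tested genes. DESeq2 called 1 member, Gstm5, and limma-voom (weighted by sample quality) none, where these tools called 5.27% and 11.7% of all genes. The Ctrl and Srsf10_KD livers did not overlap for 3 of 48 members (6.25%), against 14.3% of all tested genes: Gstm5 was higher in all 4 Srsf10_KD livers (6.73% of all genes were higher in this way), and Ugt1a1 and Ugt1a6b were lower (7.53% of all genes). By each of these counts the members lay at or below the share of all genes.

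The sign of the fold change differed by family. Positive values were found for 3 of 3 MGST, 20 of 21 GST and 6 of 7 SULT genes, for 3 of 10 UGT2 and UGT3 genes and for 0 of 7 UGT1 genes, against 51.3% of all tested genes. The median log2 fold change was 0.47 for MGST, 0.36 for GST, 0.32 for SULT, −0.13 for UGT2 and UGT3 and −0.78 for UGT1, against 0.013 over all genes. The MGST median is the value of Mgst2, which held 0.011% of the family's CPM, where Mgst1 held 99.6%. These signs and medians are descriptions of neighbouring and in part co-regulated genes, which are not independent, and no test was run over a family. The members also varied more between livers of 1 group than other genes did, with a median within-group SD of log2 CPM of 0.42 against 0.26 over all tested genes.

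**Figure D2:**
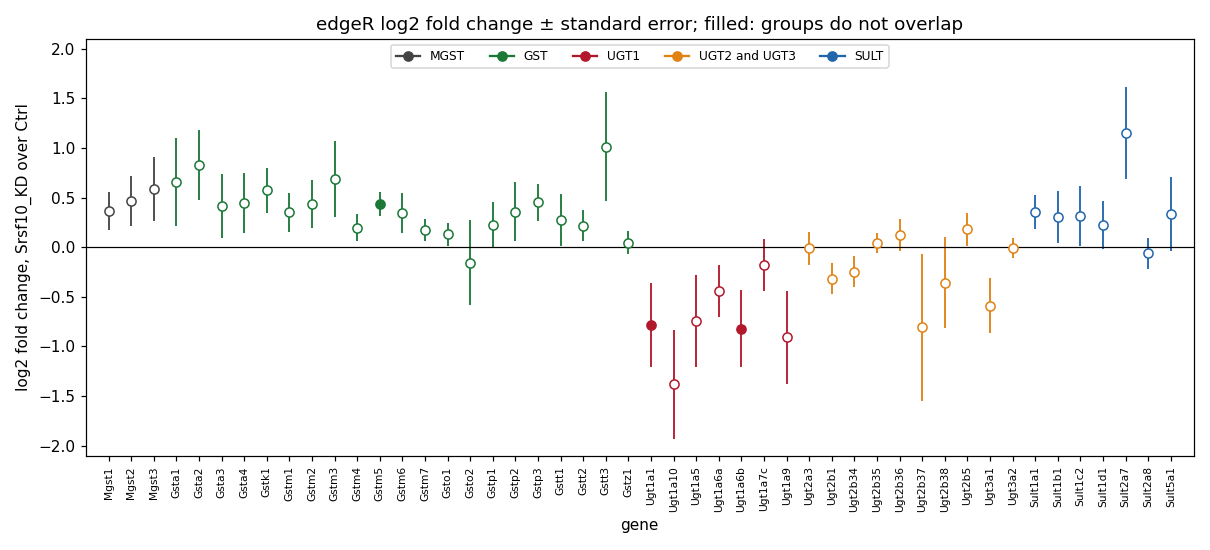
log2 fold change of each of the 48 tested members, Srsf10_KD over Ctrl, from edgeR with its standard error as the bar and the family as the colour. Filled points are the 3 genes whose groups do not overlap (Gstm5, Ugt1a1 and Ugt1a6b), and all 7 UGT1 genes lie below 0.

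The UGT1 genes lay lower in the livers labelled Srsf10_KD without passing the adjusted threshold, and the size of the difference depended on 1 liver. UGT1 is a single locus on chromosome 1 (chr1:88055388-88220002, plus strand, GRCm38) with 9 genes that each have their own start and first coding exon and share 4 downstream exon stretches of 1311 bases in all (chr1:88215044-88218997). A read in the shared exons belongs to every one of these genes and is left out of STAR's gene counts. The count of each gene therefore comes from its own exons: 913 bases for Ugt1a1, 938 for Ugt1a6b and 879 for Ugt1a9. Ugt1a6a and Ugt1a7c also have annotated exons that retain introns or extend past the shared exons, so their counts can hold other reads of the locus.

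Ugt1a1, the enzyme that glucuronidates bilirubin, was at 217, 279, 222 and 224 CPM in Ctrl livers 1 to 4 and at 151, 208, 32.2 and 156 CPM in Srsf10_KD livers 1 to 4. The highest Srsf10_KD liver lay just under the lowest Ctrl liver, and Srsf10_KD 3 had by far the least. The means were 236 ± 29.2 and 137 ± 74.5 CPM (SD, n = 4 each), with a log2 fold change of −0.78 ± 0.43 SE and an adjusted p of 0.292 by the edgeR quasi-likelihood test. Without Srsf10_KD 3 the log2 fold change was −0.45 (edgeR adjusted p = 0.182).

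Ugt1a6b, a phenol-conjugating enzyme, was at 38.7, 42.0, 38.0 and 33.5 CPM in Ctrl and at 23.7, 31.6, 5.74 and 25.2 CPM in Srsf10_KD livers. Again no Srsf10_KD liver reached a Ctrl liver, and Srsf10_KD 3 was lowest. The log2 fold change was −0.82 ± 0.39 SE (edgeR adjusted p = 0.248) and −0.50 without Srsf10_KD 3 (adjusted p = 0.128 by edgeR). Ugt1a9, which conjugates bulky phenols and fatty acid derivatives, was at 14.5, 18.5, 17.1 and 11.6 CPM in Ctrl and at 9.81, 8.63, 1.52 and 12.9 CPM in Srsf10_KD livers, so that the groups overlapped through Ctrl 4 and Srsf10_KD 4. Its log2 fold change was −0.91 ± 0.47 SE (edgeR adjusted p = 0.274) and −0.56 without Srsf10_KD 3.

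The other tested genes of the locus had smaller counts and the same sign. Ugt1a5 went from a Ctrl mean of 14.0 to a Srsf10_KD mean of 8.36 CPM, Ugt1a6a from 11.3 to 8.28 CPM, and Ugt1a7c from 0.833 to 0.736 CPM. Ugt1a10, the gene of the locus with the most negative fold change (−1.38 ± 0.55 SE, edgeR unadjusted p = 0.031, adjusted p = 0.198), had a Ctrl mean of only 0.319 CPM and is named here after its values were seen. Srsf10_KD 3 was the lowest of the 8 livers for 6 of the 7 genes, at a median of −2.72 on the log2 scale from the Ctrl mean, and Ugt1a7c was the exception. In summed CPM the locus stood at 296, 372, 304 and 292 in Ctrl and at 204, 275, 46.2 and 212 in Srsf10_KD livers, which did not overlap. The median log2 fold change of the same 7 genes was −0.45 without Srsf10_KD 3, still with 7 of 7 negative. The 5 pericentral hepatocyte markers also had sums that did not overlap, 12570 to 14020 CPM in Ctrl and 11230 to 12170 CPM in Srsf10_KD livers, although each single marker overlapped. The sums of the 5 periportal markers overlapped, at 3816 to 5404 CPM in Ctrl and 3233 to 4432 CPM in Srsf10_KD livers. The part of either marker list in the UGT1 result was not tested.

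**Figure D3:**
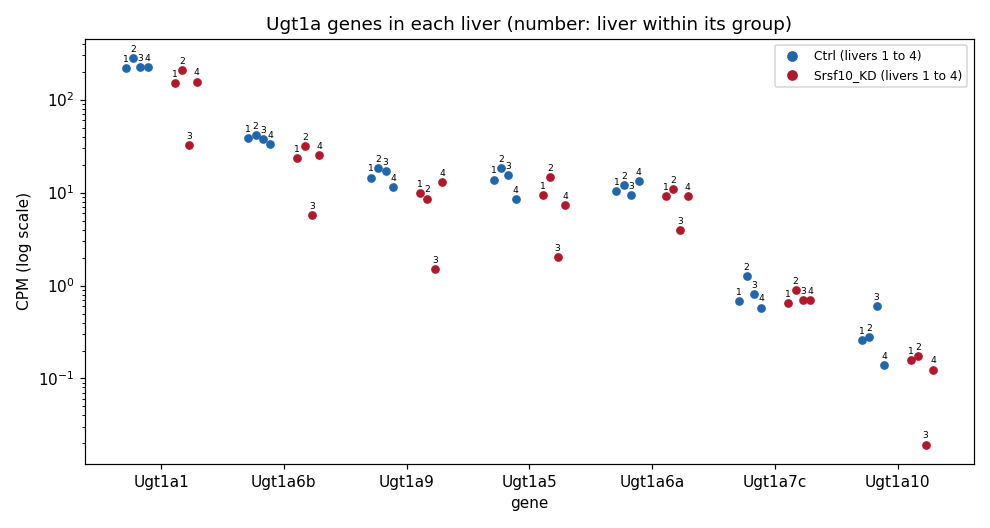
CPM on a log axis of the 7 tested UGT1 genes, with 1 point for each liver numbered within its group (Ctrl blue, Srsf10_KD red). Srsf10_KD 3 is the lowest point for every gene but Ugt1a7c, and for Ugt1a1 it is at 32.2 CPM where the other 3 Srsf10_KD livers are between 151 and 208.

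Of the soluble GST genes, 20 of 21 had a positive fold change, from 0.047 for Gstz1 to 1.01 for Gstt3, and Gsto2, at about 0.2 CPM, was the exception. None passed the adjusted threshold. Those with an unadjusted p under 0.05 were Gstm5, Gstk1, Gstp3 and Gsta2, all higher, which is 19.0% of the GST genes tested against 11.2% of all tested genes that were higher at this threshold. The summed CPM of the family was 3770, 3960, 3881 and 2816 in Ctrl livers and 3717, 4529, 5131 and 4284 in Srsf10_KD livers, so the groups overlapped through Srsf10_KD 1.

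Gstm5, a mu class GST, was at 7.0, 7.91, 6.66 and 6.35 CPM in Ctrl and at 9.68, 8.76, 10.7 and 8.75 CPM in Srsf10_KD livers. Each Srsf10_KD liver lay above each Ctrl liver, and no liver stood far from its group. The means were 6.98 ± 0.674 and 9.46 ± 0.909 CPM (SD, n = 4 each), a log2 fold change of 0.44 ± 0.12 SE with an adjusted p of 0.127 by edgeR, the smallest among the members, and of 0.0291 by DESeq2. After correction for the trend on length within each library, Gstm5 had a log2 fold change of 0.18 (edgeR unadjusted p = 0.146).

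The most abundant GST genes overlapped between groups. Gsta3, an alpha class GST, was at 1145, 1352, 1138 and 497 CPM in Ctrl and at 886, 1527, 1982 and 1106 CPM in Srsf10_KD livers. Gstm1 was at 567, 620, 406 and 354 CPM in Ctrl and at 625, 749, 495 and 614 CPM in Srsf10_KD livers. Gstp1 was at 629, 560, 898 and 840 CPM in Ctrl and at 856, 542, 864 and 1145 CPM in Srsf10_KD livers. For Gsta3 the extremes were Ctrl 4, lowest, and Srsf10_KD 3, highest, whereas Gstp1 had its lowest value in Srsf10_KD 2. Their log2 fold changes were 0.41 ± 0.32, 0.35 ± 0.20 and 0.22 ± 0.23 (SE), with edgeR adjusted p of 0.444, 0.309 and 0.572. These values moved with 1 liver left out. Gsta3 was at 0.18 without Ctrl 4 or without Srsf10_KD 3. Gstm1 lay between 0.22 without Ctrl 4 and 0.49 without Ctrl 2, and Gstp1 between 0.044 without Srsf10_KD 4 and 0.38 without Srsf10_KD 2. By limma-voom Gsta3 had 0.037.

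Gstt3, a theta class GST, had the largest positive fold change of the GST genes and one of the 3 largest spreads within groups of all tested members. It was at 23.0, 25.8, 14.9 and 5.41 CPM in Ctrl and at 14.9, 55.0, 54.6 and 15.1 CPM in Srsf10_KD livers. Srsf10_KD 2 and Srsf10_KD 3 were above all other livers, and the other Srsf10_KD livers were within the Ctrl range (log2 fold change 1.01 ± 0.55 SE, edgeR adjusted p = 0.293). Gstk1, Gstp3 and Gsta2 lie outside the naming rule and are given because they passed the unadjusted threshold. Gstk1, the kappa class GST of mitochondria and peroxisomes, had means of 106 ± 16.7 and 158 ± 57.4 CPM and reached 242 CPM in Srsf10_KD 3. Gstp3 had means of 6.71 ± 0.953 and 9.19 ± 2.26 CPM. Gsta2 had means of 9.27 ± 3.71 and 16.5 ± 6.30 CPM, and 36.6% of its 75-base stretches also occur in other genes, chiefly Gsta1. At the other end Gstz1, which isomerises maleylacetoacetate in tyrosine breakdown, was nearly level at 655 ± 39.6 and 676 ± 73.4 CPM.

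The 7 Gstm genes lie within 149 kb of chromosome 3 (chr3:107895821-108044894) and all had positive fold changes, from 0.18 for Gstm7 to 0.69 for Gstm3. The 3 Gsta genes on chromosome 9, the 3 Gstp genes on chromosome 19 and the 3 tested Gstt genes on chromosome 10 were also each positive. Across the members, 55 of 67 sit in 11 such clusters, within 1000 kb of another member. Ctrl 4 was the lowest of the 8 livers for 17 of the 21 GST genes and for 26 of all 48 members. Without Ctrl 4 the GST median fell from 0.36 to 0.23, still with 20 of 21 positive. GST transcripts are short, with a median of 1182 bases against 3072 bases over all tested genes, and with the length trend removed the GST median was 0.14, with 17 of 21 positive and none at an unadjusted p under 0.05 by edgeR, against 15.5% of all tested genes.

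The antioxidant response element core TGACNNNGC (N is any base), the letters bound by NRF2 and its partners, was searched on both strands of the 250 bases before each start in RefSeq promoter sequences (GRCm38.p6), which were found for 59 of the 67 members and 27025 genes in all. It was present in 4 of 59 members (6.78%), namely Gsta3, Gstm5, Gstm7 and Mgst1, against 11.5% of all genes. A match is a description of letters and says nothing of binding in these livers. The windows are shown because Gstm5 and Mgst1 are among the genes described here, and the capitals mark the core, which in Mgst1 is on the opposite strand. They lie at chr1:21240454-21240482, chr3:107895802-107895830, chr3:107931725-107931753 on the minus strand, and chr6:138140461-138140489.
Gsta3: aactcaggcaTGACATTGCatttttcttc
Gstm5: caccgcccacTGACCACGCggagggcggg
Gstm7: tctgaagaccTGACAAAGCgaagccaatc
Mgst1: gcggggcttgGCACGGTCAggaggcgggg

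The 3 MGST genes all had positive fold changes with adjusted p of 0.280 to 0.298 by edgeR. Mgst1 was at 3429, 3321, 3892 and 3406 CPM in Ctrl and at 3928, 3683, 6451 and 3980 CPM in Srsf10_KD livers. Srsf10_KD 3 stood far above all others, and Ctrl 3 lay within the Srsf10_KD range. The log2 fold change of Mgst1 was 0.36 ± 0.19 SE, 0.14 without Srsf10_KD 3 and 0.098 with the length trend removed. Mgst3 was at 12.2, 19.1, 15.6 and 6.0 CPM in Ctrl and at 13.3, 23.3, 25.6 and 17.3 CPM in Srsf10_KD livers, with a log2 fold change of 0.59 that was 0.34 without Ctrl 4, and Mgst2, which can make leukotriene C4, was below 1 CPM in every liver.

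**Figure D4:**
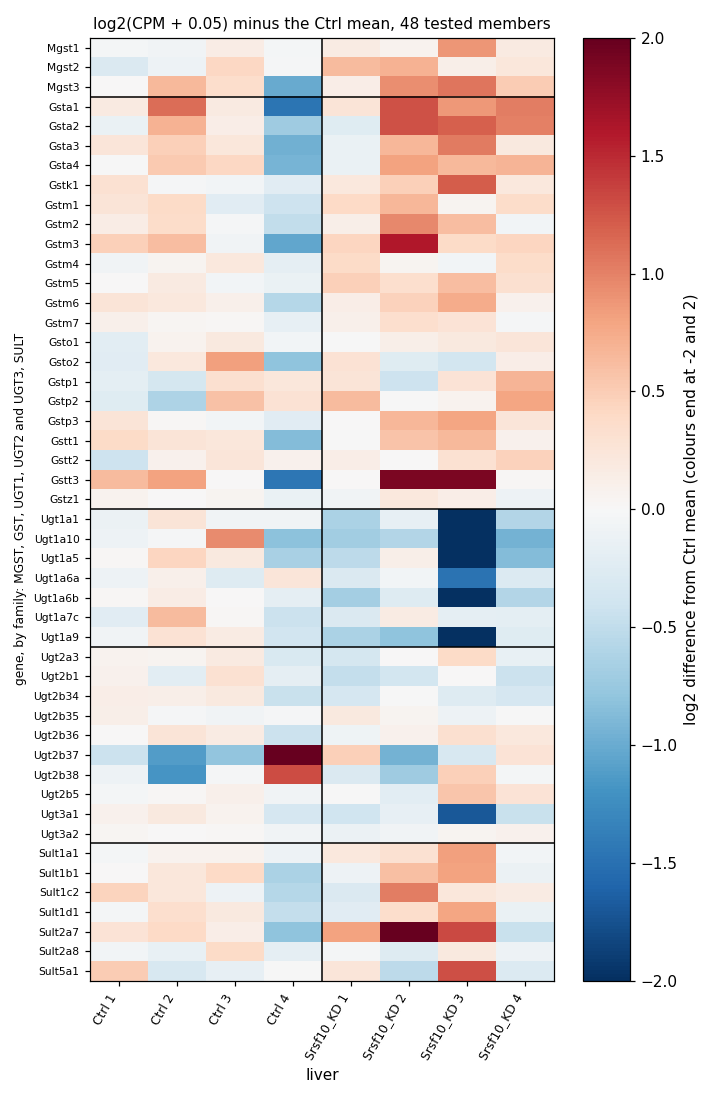
Each of the 48 tested members (rows, by family) in each liver (columns), as the difference of log2(CPM + 0.05) from the gene's Ctrl mean, with colours ending at −2 and 2. Ctrl 4 is blue through most GST genes, Srsf10_KD 2 and Srsf10_KD 3 are mostly red there, and Srsf10_KD 3 is dark blue through the UGT1 genes except Ugt1a7c.

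The UGT2 and UGT3 genes, whose UGT2 members glucuronidate steroids, bile acids and drugs, showed no common direction. Ugt2b5 was at 756, 789, 841 and 740 CPM in Ctrl and at 776, 674, 1145 and 948 CPM in Srsf10_KD livers, and Ugt2b36 at 651, 766, 719 and 481 CPM and at 605, 688, 803 and 748 CPM. Both overlapped between groups, with log2 fold changes of 0.18 ± 0.17 and 0.12 ± 0.16 SE and edgeR adjusted p of 0.511 and 0.663. Without Srsf10_KD 3 the value of Ugt2b5 was 0.034, and without Ctrl 4 that of Ugt2b36 was −0.0043. The summed CPM of the family ran from 2865 to 3659 in Ctrl and from 2983 to 3791 in Srsf10_KD livers. Ugt2b1 had the means 358 ± 60.4 and 287 ± 45.8 CPM and Ugt2b34 509 ± 93.3 and 429 ± 48.6 CPM, both named here after their values were seen and neither past an unadjusted p of 0.05 by edgeR.

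Ugt2b37 had the largest spread within groups of all tested members. It was at 1.61, 0.981, 1.25 and 11.3 CPM in Ctrl and at 3.07, 1.11, 1.75 and 2.67 CPM in Srsf10_KD livers. Only Ctrl 4 was high, and the log2 fold change of −0.81 ± 0.74 SE became 0.75 without that liver. Ugt2b38, which shares 28.0% of its 75-base stretches with Ugt2b5 and Ugt2b37, was also highest in Ctrl 4, at 9.74 CPM against 1.70 to 5.43 CPM in the other livers.

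Ugt3a1 and Ugt3a2 are neighbours on chromosome 15 (chr15:9276888-9370955) and belong to a small family that uses UDP-sugars other than glucuronic acid. Ugt3a2 was the steadiest of the named members, at 487, 478, 481 and 451 CPM in Ctrl and at 438, 451, 495 and 504 CPM in Srsf10_KD livers, with a log2 fold change of −0.01 ± 0.10 SE. Ugt3a1, named after its values were seen, was at 112, 121, 111 and 83.2 CPM in Ctrl and at 79.7, 93.8, 32.7 and 77.3 CPM in Srsf10_KD livers. As with the UGT1 genes its lowest liver was Srsf10_KD 3, and the groups overlapped through Ctrl 4 (log2 fold change −0.59 ± 0.28 SE, edgeR adjusted p = 0.242).

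Of the 21 SULT genes, 7 were tested. Sult2a8, which sulfates bile acids, took 71.3% of the family's CPM. It was at 1060, 999, 1430 and 976 CPM in Ctrl and at 1069, 920, 1259 and 1024 CPM in Srsf10_KD livers, and the groups overlapped throughout (log2 fold change −0.06 ± 0.16 SE, from −0.15 without Srsf10_KD 3 to 0.077 without Ctrl 3). Sult1a1, the phenol sulfotransferase, was at 215, 232, 232 and 206 CPM in Ctrl and at 257, 273, 391 and 214 CPM in Srsf10_KD livers. It was higher in Srsf10_KD livers 1 to 3 than in any Ctrl liver, but not in Srsf10_KD 4 (log2 fold change 0.36 ± 0.17 SE, edgeR adjusted p = 0.252, and 0.16 without Srsf10_KD 3). Sult1d1, which sulfates catecholamines, was at 118, 153, 138 and 87.0 CPM in Ctrl and at 104, 156, 210 and 111 CPM in Srsf10_KD livers, which overlapped. Its log2 fold change was 0.23 ± 0.25 SE, −0.0072 without Srsf10_KD 3 and 0.087 without Ctrl 4. The SULT median of 0.32 became 0.12 without Srsf10_KD 3, with 4 of 7 positive, and 0.17 with the length trend removed.

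Sult2a7, the other tested SULT2A gene, is named because it passed the unadjusted threshold (adjusted p = 0.202 by edgeR). It was at 2.66, 2.91, 2.41 and 1.23 CPM in Ctrl and at 3.85, 9.49, 5.54 and 1.60 CPM in Srsf10_KD livers. Srsf10_KD 2 was highest and Srsf10_KD 4 lay inside the Ctrl range. In the same liver 2 cytochrome P450 genes that are higher in female mice, both chosen after their values were seen, were far above all other livers: Cyp2b13 was at 111 CPM against 0.0351 to 3.03 CPM elsewhere, and Cyp2b9 at 362 CPM against 3.28 to 90.5 CPM.

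The 19 members below the filter reached at most 0.759 CPM in any liver. No read was counted for 6 of them (Ugt2a1, Ugt2a2, Sult1c1, Sult2a4, Sult2a5 and Sult2a6). Most of the others are genes of other tissues or of the female liver, such as Sult2a1 with 12 reads in the 8 livers together, Sult2a2 with 14, Sult3a1 with 32 and Sult3a2 with 2. Ugt1a2 (67 reads) was at 0.119 to 0.360 CPM in Ctrl and at 0.0174 to 0.115 CPM in Srsf10_KD livers, the same direction as the tested genes of its locus. Sult1e1, the oestrogen sulfotransferase, had 104 reads and its highest value in Srsf10_KD 3. The remaining ones were Gstt4, Sult2a3, Sult2b1, Sult4a1, Sult6b1, Sult6b2 and Ugt1a8, with 1 to 45 reads each.

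**Figure D5:**
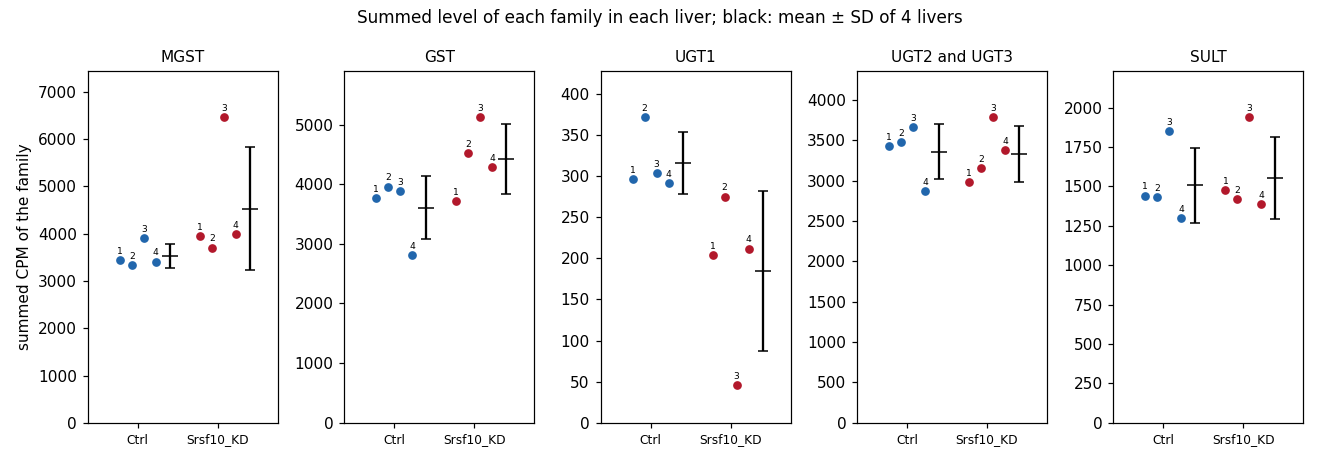
Summed CPM of each family in each liver (numbered points, Ctrl blue and Srsf10_KD red) with the mean and SD of 4 livers in black, each panel with its own axis from 0. The UGT1 sums, of which Ugt1a1 makes up 74.5%, do not overlap between groups (292 to 372 against 46.2 to 275 CPM), and the other 4 families overlap.

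The enzymes that supply the cofactors were tested in the same fit. Of 11 tested genes of glutathione supply none passed the adjusted threshold, 8 were positive, and 2 (Gclm and Ggct) did not overlap between groups, where 14.3% of all tested genes did not. Gclm, the modifier subunit of the rate-limiting enzyme of glutathione synthesis, was at 214, 220, 212 and 172 CPM in Ctrl and at 221, 246, 225 and 224 CPM in Srsf10_KD livers (log2 fold change 0.16 ± 0.11 SE, edgeR adjusted p = 0.383). Ggct, which acts in the turnover of glutathione, had means of 8.21 ± 1.5 and 11.7 ± 0.830 CPM, with an adjusted p of 0.129 by edgeR and of 0.0306 by DESeq2. Of 6 genes of UDP-glucuronic acid supply none passed, and Ugdh, which makes UDP-glucuronic acid, was at 136, 127, 111 and 124 CPM in Ctrl and at 138, 165, 146 and 137 CPM in Srsf10_KD livers. Its direction was opposite to that of the UGT1 genes, with a log2 fold change of 0.23 ± 0.11 SE and an edgeR adjusted p of 0.242. Of 8 genes of PAPS supply and desulfation none passed by edgeR. Slc26a1, a sulfate carrier, was lower without overlap at 170 ± 17.0 and 120 ± 18.6 CPM (edgeR adjusted p = 0.122, DESeq2 adjusted p = 0.0222).

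Among 25 tested regulators 1 passed the adjusted threshold by edgeR and 3 by DESeq2 (Ppara, Bach1 and Cebpb), against 0.071% and 5.27% of all genes. At an unadjusted p under 0.05, edgeR took 1 as higher and 8 as lower, against 11.2% and 10.6% of all tested genes, and 5 of 25 did not overlap, against 14.3%. Ppara, the fatty acid sensing nuclear receptor, was at 177, 208, 168 and 234 CPM in Ctrl and at 88.4, 84.6, 77.8 and 82.3 CPM in Srsf10_KD livers, and fell by 1.24 on the log2 scale (edgeR adjusted p = 0.0166). Every Srsf10_KD liver was far under every Ctrl liver, and Srsf10_KD 3 was close to the other 3. A link between Ppara and the GST, UGT and SULT genes was not tested. Of the xenobiotic sensors, PXR (Nr1i2) was at 112, 130, 121 and 113 CPM in Ctrl and at 98.9, 99.1, 99.8 and 106 CPM in Srsf10_KD livers, which did not overlap (log2 fold change −0.24 ± 0.10 SE, edgeR adjusted p = 0.199). CAR (Nr1i3) had means of 360 ± 70.6 and 316 ± 62.6 CPM and Ahr of 57.9 ± 13.4 and 59.0 ± 14.1 CPM, both overlapping. Arnt, the partner of AhR, was lower without overlap (30.4 ± 2.7 and 24.7 ± 1.18 CPM, edgeR adjusted p = 0.154). NRF2 (Nfe2l2) had means of 66.5 ± 4.14 and 77.2 ± 5.69 CPM with overlap, and Bach1, a repressor at NRF2 sites, was lower without overlap at 57.8 ± 5.72 and 41.2 ± 5.34 CPM (edgeR adjusted p = 0.116). Cebpb, a factor of the acute phase, was higher without overlap at 119 ± 26.8 and 195 ± 35.3 CPM (edgeR adjusted p = 0.119). Over the list, 6 of 25 fold changes were positive, with a median of −0.13, and of −0.08 with the length trend removed.

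The known targets of these regulators outside the GST, UGT and SULT families did not pass the adjusted threshold of edgeR, and 1 passed that of DESeq2. For the counts that follow, 21.8% of all tested genes were at an unadjusted p under 0.05 by edgeR. The groups did not overlap for 14.3% of all tested genes (6.73% higher in Srsf10_KD). DESeq2 called 5.27% of all genes, and 51.3% had a positive fold change. Of 21 NRF2 targets, 13 were positive with a median log2 fold change of 0.07, none passed the adjusted threshold and 2 were at an unadjusted p under 0.05 by edgeR. Gclm and Fth1, the ferritin heavy chain, were higher without overlap, Fth1 at 1205 ± 77.3 and 1659 ± 358 CPM. Of 15 CAR and PXR targets, 12 were positive with a median of 0.17, none passed by edgeR, 2 were at an unadjusted p under 0.05 and no gene was free of overlap. DESeq2 called 1 of them, Abcc2, the carrier that exports conjugates into bile and named after its values were seen, with means of 593 ± 132 and 351 ± 87.5 CPM (adjusted p = 0.0315 by DESeq2 and 0.133 by edgeR). Of 17 other conjugation enzymes, which methylate, acetylate or attach amino acids, 12 were positive with a median of 0.16. None of them was past the adjusted or the unadjusted threshold of edgeR or called by DESeq2. With the length trend removed the median was −0.04 for the NRF2 targets, 0.03 for the CAR and PXR targets and 0.05 for the other conjugation enzymes.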

How the data were processed

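Liver poly(A) RNA of 8 mice was sequenced by the authors as directional paired-end libraries. The deposited values are raw read counts per gene that the authors made with STAR 2.7.7a (version from the submitters' processing notes) on GRCm38, without normalization or pooling; the annotation release and the strand column are not given in the sources used here. Of genes overlapped wholly by exons of the opposite strand 72.5% had reads, and of those overlapped by exons of the same strand 12.8%, so exon length per gene was taken on the gene's own strand. Of 45706 identifiers, 563 were not in GENCODE M21. No pair of the 28 was a duplicate (lowest chi-square per degree of freedom 46.55). The 8 livers are taken as separate mice from the study's account, since the labels give only numbers.

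Counts were tested in R 4.3.3 with edgeR 4.0.16 (TMM, filterByExpr, quasi-likelihood fit on the group, two-sided, Benjamini-Hochberg over 15491 genes, threshold 0.05); the filter passes genes by their counts, so the tested members are not all members. Log2 levels used a prior count of 2. Alternatives were DESeq2 1.42.0, limma 3.58.1 (voom with sample quality weights), other scalings and filters, removal of length or GC trends, the replicate number as a block and each liver left out. On simulated counts of this comparison with 200 changed genes, edgeR recovered 194 of 200 with 15 false calls over 15265 genes, DESeq2 197 with 41 over 15491 and voom 193 with 12 over 15265. The changed genes had a median absolute log2 fold change of 1.46 by edgeR, and genes of low level were not among them. This is larger than any family median found here. The simulation held no length trend and no liver apart, so it does not give the recovery of changes like those of the members.

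Named members were those past an adjusted p of 0.05, those of at least 2 CPM without overlap, the 3 highest per kb in each family and the 3 with the largest spread; from the lists of pathway genes, those called or without overlap, and Srsf10, Ppara, Nfe2l2, Nr1i3, Nr1i2 and Ahr. Members and lists were chosen with earlier results of these data known. The liver cell type lists were read as counts of genes and as summed CPM only. Stellate, macrophage and zonal hepatocyte markers overlapped between groups for every single gene, and Lyve1 was the only endothelial marker without overlap. Tf and Sts were not matched. Of 5 promoter motifs searched, 1 is reported as a description; the others are not reported here, and nothing is said of what they show.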

Additional observations from a re-analysis of the deposited data

Results flagged for a closer look

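Of 96 groups of 4 livers examined (48 members, 2 groups each), 5 held a liver far from the other 3 of its group by Dixon's test at the 95% level, where chance gives about 1 in 20, or 4.8. Mgst1 was at 6451 CPM in Srsf10_KD 3 against 3683 to 3980 CPM in the other Srsf10_KD livers. Gstm3 was at 11.28 CPM in Srsf10_KD 2 against 4.82 to 4.99 CPM. In Ctrl 2, Ugt1a1 reached 279.2 CPM, and Ctrl livers 1, 3 and 4 lay between 217 and 224 CPM. In Ctrl 4, Ugt2b34 was low at 370.4 CPM, with Ctrl 1 to 3 between 545 and 573 CPM, and Ugt2b37 was high at 11.25 CPM, with Ctrl 1 to 3 between 0.981 and 1.61 CPM.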

How the results depend on the processing

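The count of all genes past an adjusted p of 0.05 was 11 by edgeR, 824 by DESeq2, 1814 by limma-voom and 46 without a filter on low counts, and ran from 0 (without Ctrl 2, Srsf10_KD 1, Srsf10_KD 2 or Srsf10_KD 4) over 4 (without Ctrl 1), 5 (without Ctrl 4) and 64 (without Srsf10_KD 3) to 544 (without Ctrl 3). The count of members was 0 by edgeR, 1 by DESeq2 (Gstm5) and 0 to 1 with 1 liver left out, the 1 being Ugt1a2 without Ctrl 3, a gene below the filter with all livers. Members past an unadjusted p of 0.05 numbered 6 by edgeR, which was 12.5% of those tested, against 21.8% of all tested genes. They numbered 11 by DESeq2, 12 by limma-voom, 14 without a filter and 3 to 9 with 1 liver left out. For these alternatives the share of all genes is not given. Their counts therefore cannot be read as a result about the members. The UGT2 and UGT3 median was −0.13, −0.0064 by limma-voom, and −0.20 to −0.018 with 1 liver left out, the last without Ctrl 4. No other family median changed sign or moved by more than the spread between livers. That spread was 0.83 for UGT1 and 0.37 for SULT, larger than the size of their medians, so it could not mark a fall to 0. The UGT1 median ran from −1.06 without Srsf10_KD 2 to −0.48 without Srsf10_KD 3, over the genes tested in each fit. The SULT median was 0.007 by limma-voom. By DESeq2 it was 0.64 over the SULT genes fitted there and 0.31 over the 7 tested by edgeR. Of the 18 named members, 12 kept their sign in all 17 alternatives and 6 did not (Gstp1, Sult1d1, Sult2a8, Ugt2b36, Ugt2b37 and Ugt3a2). The cause of these differences was not tested.

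The livers share replicate numbers, but the labels give them no meaning, and the deviations of same-numbered livers correlated at −0.18, 0.21, 0.27 and 0.22, so the numbers were not taken as pairs. With the replicate block edgeR called 59 genes and 0 members, and 18 members at an unadjusted p under 0.05 (37.5%, against 28.0% of all tested genes).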
